A study of Homo sapiens with 4 samples.

Results

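The RNA 3′ ends of 5 replication-independent and variant histone genes were followed in HEK293, a human embryonic kidney cell line. The genes were H2AFZ, H2AFV, H2AFX, H3F3A and H3F3B, out of the 18164 loci with a 3′ end site in these data. Each gene was taken as a strand-specific window on hg19. These were chromosome 4, 100869000 to 100872000, minus strand, for H2AFZ, chromosome 7, 44866000 to 44888000, minus strand, for H2AFV, and chromosome 11, 118964000 to 118966500, minus strand, for H2AFX. The windows of the H3.3 genes were chromosome 1, 226249500 to 226260500, plus strand, for H3F3A, and chromosome 17, 73772000 to 73776000, minus strand, for H3F3B. No exon annotation of hg19 was used here, so the sites are given by position and by distance along the gene. A-seq sequences the last bases of transcripts before the tail, from an anchored oligo-dT primer. The groups are called untreated (no siRNA), control (scrambled-A siRNA), CstF-64 and CF Im 68 cells (siRNA to the named protein). Each was 1 library, and cells given an siRNA were harvested after 3 days. The siRNAs addressed how CF Im 68, a subunit of cleavage factor I, and CstF-64, which binds RNA downstream of the cleavage site as part of CstF, bear on the choice of poly(A) site.

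Most histone mRNAs are made in S phase from clustered genes and end in a stem-loop without a poly(A) tail. Replication-independent histone genes instead give polyadenylated mRNA throughout the cell cycle, and their proteins replace canonical histones outside replication. H2AFZ and H2AFV encode near-identical forms of H2A.Z, a variant placed around transcription start sites. H2AFX encodes H2A.X, which is phosphorylated at DNA double-strand breaks, and its transcripts can end at a stem-loop or at a poly(A) site. H3F3A and H3F3B encode the same H3.3 protein from transcripts with different untranslated regions. The oligo-dT selection leaves stem-loop ends without a tail uncounted.

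The treatments rest on these siRNA strands, as the labels give them, with n for a base that they do not specify. They are shown because the CstF-64 and CF Im 68 cells are defined by having received them. The sequence of the control siRNA is not shown here.
CstF-64 siRNA: nnccugaaugggcgcgaauuc
CF Im 68 siRNA: nngaccgagauuacauggaua

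The members differed at their promoters as well. In RefSeq (GRCh38.p14), where all 5 were matched under their present symbols H2AZ1, H2AZ2, H2AX, H3-3A and H3-3B, the letters TATAAA stood on the gene's strand in the promoter windows of H2AFZ, H2AFX and H3F3B, and on neither strand in those of H2AFV and H3F3A. Windows were 300 bases long and included the annotated start, and TATAAA or its complement TTTATA was found in 11.5% of the 35116 windows in RefSeq, and TATAAA on the gene's strand in 7.33%. The stretches around the match are shown with the motif in capitals, since they set H2AFZ, H2AFX and H3F3B apart from the other members. The motif began 31 bases before the start in H2AFZ (chr4:99950289-99950318, minus strand) and H2AFX (chr11:119095479-119095508, minus strand) and 29 bases before it in H3F3B (chr17:75779791-75779820, minus strand).
H2AFZ: aacattctgcagTATAAAgggagcagggaa
H2AFX: gtcctgggggctTATAAAggcggcctcgcg
H3F3B: gtgaagcgtgccTATAAAaacggaggcgac

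The libraries held 7343112 to 15806975 reads, the fewest in CstF-64 cells. In RPM, reads per 1000000 reads of the library, the gene of CstF-64 (CSTF2) had 36.8 RPM in untreated cells, 23.7 RPM in control cells, 17 RPM in CstF-64 and 34.2 RPM in CF Im 68 cells. The gene of CF Im 68 (CPSF6) had 164 RPM, 186 RPM, 180 RPM and 134 RPM in the same order. Each target was lowest in the cells that received its siRNA, by less than 2-fold against control cells, and the proteins were not measured here. For CSTF2, control cells lay further below untreated cells than CstF-64 cells lay below control cells. With 1 library per group there is no replicate check, and the difference between the control libraries, which includes any effect of the control siRNA, is the only measure of spread. Intervals are exact 95% intervals and cover counting error only. Copies of 1 fragment from PCR could not be told from separate molecules, and every read was counted as separate. The intervals may therefore be too narrow, and the p-values given below too small. A locus total was counted as changed when log2(RPM + 1) differed at least 2-fold from both control libraries in the same direction.

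None of the 5 histone genes changed its total by this rule, and the values that came nearest were low levels of H2AFZ and H2AFX in CstF-64 cells. Over all loci the rule called 6.11% lower and 1.82% higher in CstF-64 cells, and 1.86% lower and 5.02% higher in CF Im 68 cells. Between the control libraries 5.19% were higher and 1.95% lower in control than in untreated cells. That rule is looser, since the 2-fold difference had to hold against a single library, so these shares are not directly comparable. In all, 325 loci were higher and 1092 lower in CstF-64 cells, which with TMM scaling became 476 and 797 and with DESeq2 size factors 512 and 766. H2AFZ had 220 RPM in untreated cells, 177.6 RPM in control cells, 97.4 RPM in CstF-64 cells and 212 RPM in CF Im 68 cells. The CstF-64 library was the low one, at 0.548 of control (interval 0.504 to 0.596) and 0.442 of untreated (0.407 to 0.479). H2AFX had 67.4 RPM, 89.3 RPM, 36.8 RPM and 61.1 RPM in the same order. It too was lowest in CstF-64 cells, at 0.412 of control (0.359 to 0.470) and 0.545 of untreated (0.475 to 0.624). H2AFZ thus passed 2-fold against untreated alone and H2AFX against control alone. In CF Im 68 cells, H2AFX was at 0.684 of control (0.625 to 0.749) and 0.906 of untreated (0.825 to 0.995), while the control libraries themselves differed by a ratio of 1.32 (1.22 to 1.44).

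H2AFV, the second H2A.Z gene, had its highest level in the library where H2AFZ had its lowest. It had 70.5 RPM in untreated cells, 82.5 RPM in control cells, 119 RPM in CstF-64 cells and 94.8 RPM in CF Im 68 cells. The CstF-64 library was 1.44 times control (1.32 to 1.57) and 1.68 times untreated (1.54 to 1.84), below 2-fold against each. The H2AFZ to H2AFV ratio of reads was 3.12 in untreated cells (2.92 to 3.34), 2.15 in control cells (2.0 to 2.31), 2.24 in CF Im 68 cells (2.09 to 2.40) and 0.820 in CstF-64 cells (0.742 to 0.906). H2AFZ was the more abundant of the pair in 3 libraries and the less abundant in the CstF-64 library. Among all loci, the log2 ratio of H2AFV in CstF-64 cells was above that of 91.7% against control and 88.0% against untreated. The ratio of H2AFZ was above that of 14.7% and 9.23%, so neither gene lay outside the range of other loci.

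H3F3B had the smallest ratio between its highest and lowest library, 1.35 (1.25 to 1.46). It had 165 RPM in untreated cells, 153 RPM in control cells, 128 RPM in CstF-64 cells and 172 RPM in CF Im 68 cells. H3F3A was at the other end of the range of levels, with 4.68 RPM (74 reads), 7.59 RPM (102 reads), 6.67 RPM (49 reads) and 6.8 RPM (87 reads). Its intervals overlapped among the siRNA-treated libraries. H3F3B therefore had 35.3 times the reads of H3F3A in untreated cells (28.0 to 45.1), 20.1 times in control cells, 19.1 times in CstF-64 cells and 25.3 times in CF Im 68 cells. Since reads were counted at transcript ends, these levels do not depend on transcript length. They do depend on how reads matching several places were handled, which is not given in the sources used here. RefSeq names 7 pseudogenes for H3F3A, 7 for H2AFZ, 2 for H3F3B, 1 for H2AFV and none for H2AFX. The low count of H3F3A is therefore uncertain as a level, and the same limit holds for H2AFZ. Whether pseudogenes bear on either level was not tested.

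**Figure D1:**
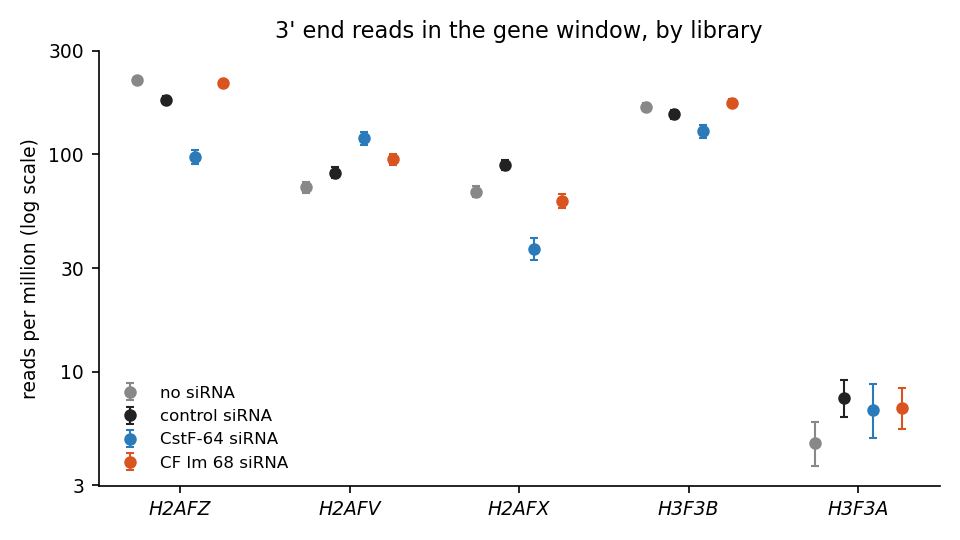
RPM in each gene window (log scale) for the 4 libraries, with exact Poisson 95% intervals as bars. H2AFZ and H2AFX are lowest in CstF-64 cells, at 97.4 and 36.8 RPM, where H2AFV is highest at 119 RPM, and H3F3A lies below 8 RPM throughout.

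The order of levels was another in CstF-64 cells. In untreated cells it was H2AFZ, H3F3B, then H2AFV and H2AFX, whose intervals overlapped, and H3F3A. In control cells H2AFX and H2AFV again overlapped in the third place. In CF Im 68 cells the order was H2AFZ, H3F3B, H2AFV, H2AFX and H3F3A with no overlap. In CstF-64 cells H3F3B and H2AFV overlapped at the top and H2AFZ came after them. The median locus was also lower in CstF-64 cells on the RPM scale. Over the 17885 loci with at least 50 reads, the log2 ratio of CstF-64 cells had a median of −0.19 against control and −0.08 against untreated. Relative to that median, H2AFZ was lower by a log2 difference of −0.67 against control and −1.09 against untreated, H2AFX by −1.09 and −0.81, and H2AFV was higher by 0.75 and 0.88. With TMM scaling factors the log2 ratio to control was −0.65 for H2AFZ, −1.07 for H2AFX and 0.77 for H2AFV. The cells were a bulk culture, so fewer cells with a transcript and less of it per cell cannot be told apart.

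H3F3B had the most varied 3′ ends of the members, and each of the CstF-64 and CF Im 68 libraries used them differently. It had 9 sites of at least 1 RPM over 2115 nt, 5 of them with at least 5% of the reads, where 6.93% of the 4981 loci compared had 5 or more such sites. From 5′ to 3′ these 5 lay on chromosome 17 at 73774632, 73774332, 73774105, 73773538 and 73772517. They are named here by their distance before the last site, in nt, which is 2115 nt, 1815 nt, 1588 nt, 1021 nt and 0 nt. In CF Im 68 cells the most 5′ site was the most used, and in CstF-64 cells it was the site at 1021 nt.

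The site at 2115 nt held 13.4% of the H3F3B site reads in untreated cells (12.1 to 14.8), 10.9% in control cells (9.60 to 12.4), 7.29% in CstF-64 cells (5.70 to 9.15) and 34.5% in CF Im 68 cells (32.5 to 36.6). The CF Im 68 library stood above the others by 21.1 points or more. In RPM the site had 22.1 RPM, 16.5 RPM, 9.26 RPM and 58.9 RPM, while the gene total did not pass the 2-fold rule. The last site went the other way, with 32.5% in untreated cells (30.7 to 34.3), 29.9% in control cells (27.9 to 31.9), 29.5% in CstF-64 cells (26.6 to 32.5) and 16.4% in CF Im 68 cells (14.9 to 18.0). At both of these sites the control libraries differed by about 2.5 points (−2.50 and −2.56).

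In CstF-64 cells the changes lay at inner sites. The site at 1021 nt had 11.3% in untreated cells (10.1 to 12.6), 23.6% in control cells (21.7 to 25.5), 43.5% in CstF-64 cells (40.3 to 46.8) and 13.0% in CF Im 68 cells (11.7 to 14.5). The site at 1815 nt had 25.1% (23.5 to 26.8), 12.9% (11.5 to 14.5), 2.68% (1.74 to 3.93) and 16.1% (14.6 to 17.7) in the same order. The CstF-64 library was thus highest at 1021 nt and lowest at 1815 nt, beyond the counting intervals of all other libraries. Here, however, the control libraries also differed, by 12.3 points at 1021 nt and −12.2 points at 1815 nt, in the same directions as CstF-64 against control cells. The site at 1588 nt stayed between 10.6 and 16.5% in all libraries.

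**Figure D2:**
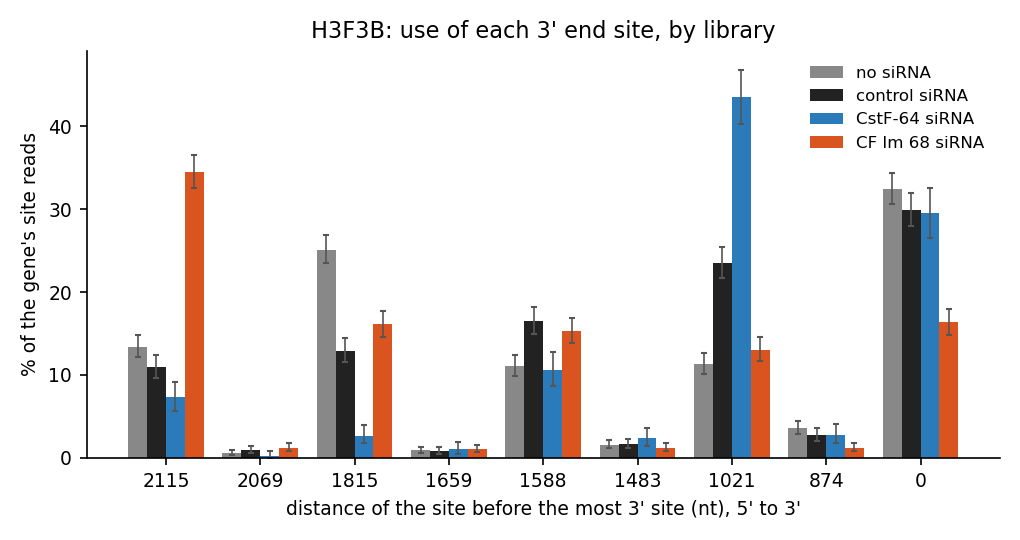
Percentage of H3F3B site reads at each of its 9 sites, ordered 5′ to 3′ by distance before the last site (nt), with exact Clopper-Pearson 95% intervals. CF Im 68 siRNA has 34.5% at 2115 nt, CstF-64 siRNA has 43.5% at 1021 nt, and the control libraries differ from each other at 1815 and 1021 nt.

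Each site with at least 5% of its locus was tested against the other sites of the locus by Fisher's exact test, with Benjamini-Hochberg adjustment over 13804 sites of all loci. A site was called when the adjusted p against control was below 0.05 and the share differed by at least 10 points from both controls in the same direction. Such a test compares 2 libraries, not conditions. Of the 9 sites of H3F3B and H2AFV tested, 1 was called up and 1 down in CF Im 68 cells, the sites of H3F3B at 2115 nt (adjusted p = 6.3e-75 by Fisher's exact test) and 0 nt (3.3e-24). In CstF-64 cells 1 was up and 1 down, the sites of H3F3B at 1021 nt (adjusted p = 2.2e-25 by Fisher's exact test) and 1815 nt (5.9e-20). Over all sites, 11.9% were called up and 11.4% down in CF Im 68 cells, and 4.43% up and 4.38% down in CstF-64 cells. Control against untreated gave 7.78% up and 7.99% down by a looser rule, since the 10 points had to hold against a single library. These shares are therefore not directly comparable with those of CstF-64 and CF Im 68 cells. The largest site change of H3F3B against both controls, 21.1 points in CF Im 68 cells and 20.0 points in CstF-64 cells, was larger than that of 87.4% and 96.1% of the loci. The largest difference of a H3F3B site between the control libraries was larger than that of 79.3% of loci.

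**Figure D3:**
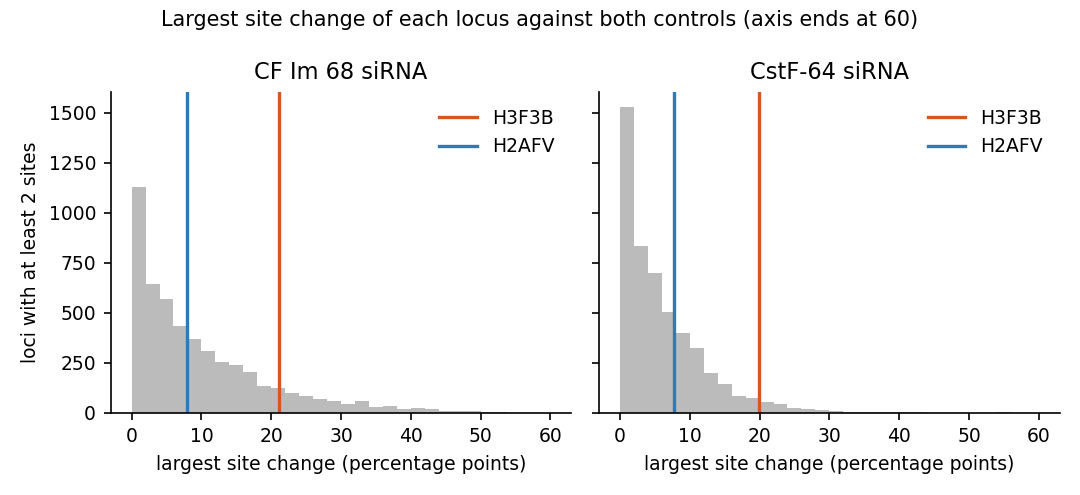
Histograms of the largest site change per locus against both controls (percentage points, the smaller of the differences to the control libraries) for 4981 loci, with H3F3B and H2AFV as lines. H3F3B lies at 21.1 points for CF Im 68 siRNA and 20.0 points for CstF-64 siRNA, H2AFV at 7.96 and 7.69 points, and the medians are 6.61 and 4.32 points.

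A comparison of the pair of most used sites covers part of these shifts. For H3F3B that pair was the site at 1021 nt and the last site, 1021 nt apart. The proximal share was 25.8% in untreated cells (23.3 to 28.5), 44.1% in control cells (41.1 to 47.1), 59.6% in CstF-64 cells (55.8 to 63.3, 681 reads) and 44.3% in CF Im 68 cells (40.4 to 48.3, 643 reads). The control libraries differed by 18.2 points, in the same direction as the 15.6 points of CstF-64 against control cells and by more. H3F3B was called as moved to the proximal site in CstF-64 cells and not in CF Im 68 cells, by the same thresholds over 4791 loci, of which 8.2% moved proximally and 3.57% distally in CstF-64 cells, and 24.2% and 2.63% in CF Im 68 cells. The call depended on which sites made the pair, and the pair was picked on the mean RPM of all libraries. The site at 1021 nt had 55.3 RPM in CstF-64 cells against 18.6 RPM in untreated and 35.6 RPM in control cells. The CstF-64 library thus helped to select the pair in which it was called. When sites were chosen on the control libraries alone, the pair was the site at 1815 nt and the last one, and the proximal share differed from control by −21.9 points in CstF-64 cells, a call to the distal site. For that pair the CF Im 68 difference from control was 19.4 points, in place of 0.26 for the pair above, and it was again not called.

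The mean end of H3F3B, as the read-weighted mean distance from its most 5′ site over sites of at least 5%, was 1011 nt in untreated cells, 1083 nt in control cells, 1243 nt in CstF-64 cells and 648 nt in CF Im 68 cells. The CF Im 68 value differed by −434 nt from control and by −362 nt from untreated cells, so that it was the shortest. The medians over 4981 loci were −56.7 and −60.5 nt. In CstF-64 cells H3F3B ended further 3′, by 161 and 233 nt, where the medians were −5.59 and −7.28 nt.

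H2AFV also had 9 sites, over 8552 nt, the most 5′ of them above the floor only through the CF Im 68 library. None of its 4 sites with at least 5% was called after either siRNA. The last site, at 44866395 on chromosome 7, had 38.8% of reads in untreated cells (35.8 to 41.8), 37.9% in control cells (35.0 to 40.9), 46.5% in CstF-64 cells (43.1 to 49.9) and 38.9% in CF Im 68 cells (36.1 to 41.8). The CstF-64 library was the highest, by less than 10 points. With a site floor of 3 RPM the shares were 43.2%, 41.2%, 49.0% and 46.1%, so that CF Im 68 cells came near it. The site at 44873835, 7440 nt before it, had 18.5% (16.2 to 21.0), 29.7% (27.0 to 32.6), 31.7% (28.6 to 35.0) and 27.7% (25.1 to 30.4), so that the untreated library stood apart from the siRNA-treated ones. At 44871577, 5182 nt before the last site, the share was 19.9% in untreated cells (17.5 to 22.5), 14.9% in control cells (12.8 to 17.1), 9.48% in CstF-64 cells (7.60 to 11.7) and 6.89% in CF Im 68 cells (5.50 to 8.52). It was lower after either siRNA than in either control, with differences from control of −7.96 points in CF Im 68 and −5.37 points in CstF-64 cells, and larger ones from untreated cells. In RPM this site had 13.2 RPM, 11.7 RPM, 11 RPM and 6.18 RPM.

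The most 5′ site of H2AFV passed the floor of 1 RPM, a mean over all libraries, only through the CF Im 68 library. Its high value there therefore follows in part from the filter. In RPM it had 0.569, 0.744, 1.36 and 4.69 in untreated, control, CstF-64 and CF Im 68 cells. At 44874947, 8552 nt before the last site, it had 9 reads in untreated cells, 10 in control cells, 10 in CstF-64 cells and 60 in CF Im 68 cells. The share was 5.24% of H2AFV site reads in CF Im 68 cells (4.02 to 6.69) against 0.862% (0.395 to 1.63) and 0.946% (0.454 to 1.73) in the controls. This site was under the 5% needed for the test over all libraries. Internal priming at A-rich stretches was not separated from true ends, so upstream sites such as this one may not all be poly(A) sites. The most used pair of H2AFV, 7440 nt apart, had a proximal share of 32.3% in untreated cells, 43.9% in control cells, 40.6% in CstF-64 cells and 41.5% in CF Im 68 cells. It was not called moved after either siRNA. The control libraries differed by 11.6 points. Between them 10.6% of loci were called in that direction and 11.1% in the other, by a looser rule with a single reference library.

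**Figure D4:**
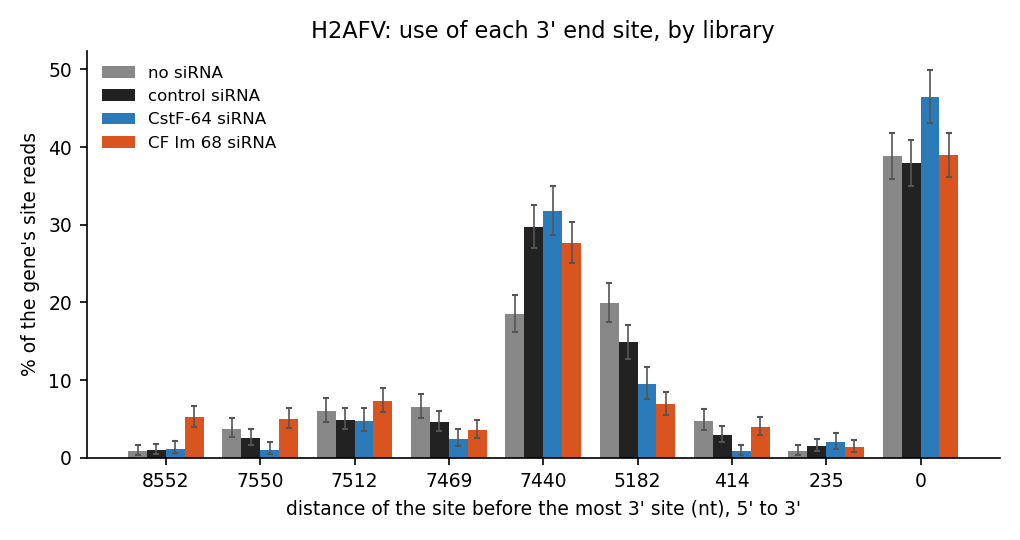
Percentage of H2AFV site reads at each of its 9 sites, ordered 5′ to 3′ by distance before the last site (nt), with exact Clopper-Pearson 95% intervals. The site at 5182 nt has 19.9% in untreated and 6.89% in CF Im 68 cells, and the site at 8552 nt has 5.24% in CF Im 68 cells and less elsewhere.

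H2AFZ, H2AFX and H3F3A each had 1 site that passed both the floor of 1 RPM and the share of 5%, so a shift between sites was not tested. H2AFZ ended at 100869248 on chromosome 4, which took 96.1 to 97.6% of its site reads in all libraries. A weak site 38 nt further 3′, at 100869210, had 83, 62, 28 and 82 reads in the order untreated, control, CstF-64 and CF Im 68. H3F3A ended at 226259720 on chromosome 1, with 54, 80, 44 and 70 reads. A second cluster 477 nt further 3′, at 226260197, stayed just below the site floor at 0.956 RPM. It took 26% of the reads of both in untreated cells (16.5 to 37.6), 14.9% in control cells (8.39 to 23.7), 6.38% in CstF-64 cells (1.34 to 17.5, 3 reads) and 17.6% in CF Im 68 cells (10.2 to 27.4). These intervals overlapped between each of the CstF-64 and CF Im 68 libraries and the control library. Those of the CstF-64 and untreated libraries overlapped only narrowly. The differences were not tested, and overlap of intervals does not show that there was none.

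H2AFX ended at a single poly(A) site on chromosome 11, with 1054, 1184, 262 and 768 reads in the same order. Reads that ended more than 100 nt upstream of it, where a stem-loop end would lie, were 0 of 1066 in untreated cells, 6 of 1201 in control cells (0.5%, interval 0.184 to 1.08), 1 of 270 in CstF-64 cells (0.370%, 0.00938 to 2.05) and 0 of 782 in CF Im 68 cells. The counts of 0 allow a share of up to 0.281% and 0.384% when taken as 3 counts of the total, and up to 0.345% and 0.471% by the exact interval used for the other libraries. The 7 reads fell on 7 different positions, 159 to 1281 nt upstream. More than 100 nt upstream of the H2AFX site, no position thus had more than 1 read in a library. Ends without a tail were not measured. On the opposite strand a converging end at 118964258, 329 nt beyond the H2AFX site, was the most used position among 972, 713, 522 and 768 reads on that strand of the H2AFX window. The files keep strand, so these reads do not enter the H2AFX values.

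Within the H2AFX site the cleavage position differed in CstF-64 cells, and less so in CF Im 68 cells. The most used position, 118964587, held 50.6% of the site's reads in untreated cells (47.5 to 53.6), 57.5% in control cells (54.6 to 60.4), 29.4% in CstF-64 cells (23.9 to 35.3) and 41.7% in CF Im 68 cells (38.2 to 45.2). A position 6 nt further 3′, 118964581, held 31.9% (29.1 to 34.8), 23.4% (21.0 to 25.9), 50.4% (44.2 to 56.6) and 37.8% (34.3 to 41.3). The CstF-64 library was thus the one in which the 3′ position was the most used. At the main H2AFZ site, the most used position held 89.6% in untreated cells, 87.7% in control cells, 77.7% in CstF-64 cells (74.4 to 80.8) and 88.8% in CF Im 68 cells. There the position 16 nt further 3′ had 8.75% of reads in CstF-64 cells (6.74 to 11.1) against 1.83 to 3.36% elsewhere. The position 17 nt further 5′ was also highest there, with 3.64% (2.37 to 5.33) against 1.27 to 2.03%, an interval that overlapped the one in control cells (1.49 to 2.69).

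**Figure D5:**
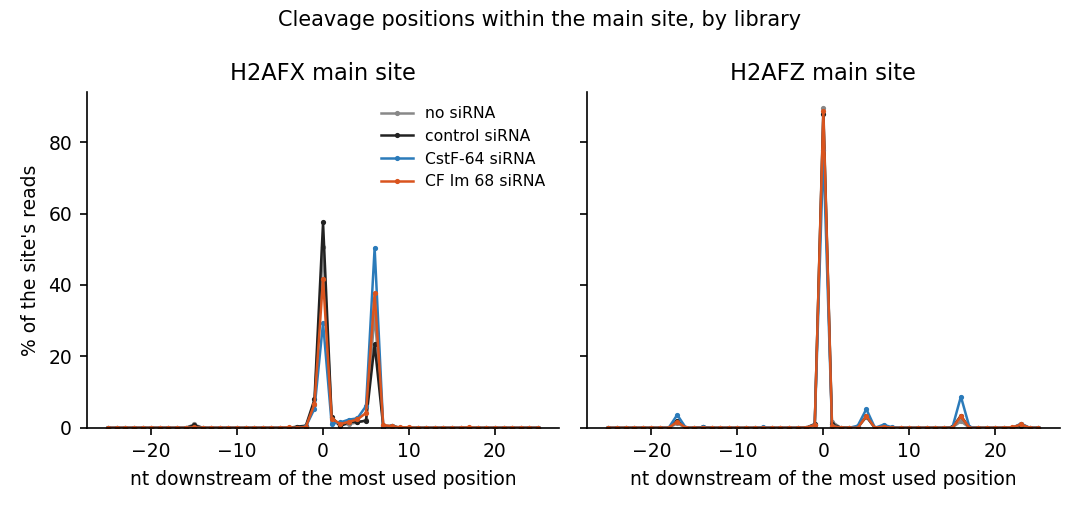
Percentage of a site's reads at each position within 25 nt of the most used position, counted downstream (nt), at the main sites of H2AFX and H2AFZ, 1 line per library. In H2AFX the position 6 nt downstream takes 50.4% in CstF-64 cells and 23.4 to 37.8% in the other libraries, and in H2AFZ the position 16 nt downstream takes 8.75% against 1.83 to 3.36%.

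These were 2 of the 6 member sites with at least 100 reads in every library, the others being 2 sites each of H2AFV and H3F3B. Over the 6867 such sites of all loci, the share of the main position was lower by at least 10 points than in both controls at 3.26% in CstF-64 cells and 2.02% in CF Im 68 cells, and higher at 7.41% and 4.54%. The most used position differed from that of both controls at 4.57% of sites in CstF-64 cells. In CF Im 68 cells none of the 6 member sites was lower by that measure. At the H2AFX site the CF Im 68 differences were −15.9 points from control and −8.90 points from untreated cells, the latter just short of 10 points. These values were not tested, since positions of 1 library have no replicate and a few amplified fragments can weigh on 1 position.

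Of 23 genes listed for the histone variant pathway, 20 had a site within 300 nt of their known hg19 end. They comprise other variant histones, histone chaperones and factors of histone mRNA. None changed in total by the 2-fold rule after either siRNA. Between the control libraries their median log2 ratio, control to untreated, was 0.38 with 14 of 20 above 0, where all loci had a median of 0.11 and 40.3% were below 0. In CF Im 68 cells the median was 0.29 against control, with 17 of 20 above 0, where all loci had 0.02 and 47.3% below 0. Against untreated it was 0.52, again with 17 of 20 above 0, where all loci had 0.13 and 40.9% below 0. In CstF-64 cells the median was −0.08 against control with 9 of 20 above 0, where all loci had −0.19 and 63.3% below 0. Against untreated it had the opposite sign, 0.28 with 17 of 20 above 0, where all loci had −0.08 and 54.0% below 0. Of 8 listed genes with a tested pair, 3 moved to the proximal site in CF Im 68 cells, set against 24.2% of all loci, and none to the distal site. ANP32E, the chaperone that removes H2A.Z from chromatin, had a proximal share of 27.0% in untreated cells (23.5 to 30.7), 35.6% in control cells (32.1 to 39.2), 45.5% in CstF-64 cells (40.1 to 50.9) and 79.8% in CF Im 68 cells (77.2 to 82.2), with sites 1963 nt apart. ASF1A, a chaperone of H3 and H4, had 50%, 41.1%, 49.0% and 65.8% (61.6 to 69.8) with sites 1370 nt apart. LSM11, a subunit of the U7 particle that processes stem-loop ends, had 17%, 31.0%, 45.0% (35.6 to 54.8) and 65.8% (61.2 to 70.1) with sites 5393 nt apart, and was the 1 listed gene of 8 moved in CstF-64 cells, set against 8.2% of all loci moved proximally. Its shift there was 14.04 points against control, and the control libraries differed by 14.01 points, in the same direction. In a window from 3 kb before to 1 kb after the gene end the LSM11 proximal site is not included, and the counts become 2 and 0.

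Profiles of total level were compared with those of the other members and the listed genes, as the root mean square difference of log2(RPM + 1) centred over the 4 libraries. H2AFZ was nearest to LSM11 (0.10) and H1F0 (0.15), a linker histone, and H2AFX to H2AFZ (0.31) and H1F0 (0.32). H2AFV was nearest to CENPA (0.11), the centromeric H3 variant, and H2AFY2 (0.13). H3F3A was nearest to DAXX (0.12), an H3.3 chaperone, and CENPA (0.14), and H3F3B to NASP (0.18) and H1FX (0.19). The H2A.Z genes were thus not each other's nearest profile among the 24 genes compared, and neither were the H3.3 genes.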

How the data were processed

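A-seq libraries of HEK293 cells, 1 per group, were analysed. The authors deposited raw read counts per single-nucleotide 3′ end and strand. The build was hg19 (GRCh37), which the submitters' processing notes name. The aligner and the handling of multiply matching reads, PCR copies and internal priming are not given in the sources used here.

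Positions were joined within 25 nt around the most used one. Sites needed a mean of 1 RPM over the libraries, on chromosomes 1 to 22 and X. A gene window formed 1 locus, and other sites were grouped within 10000 nt. Pairs needed 50 reads in every library. The thresholds are given with each result, and log2 levels used a pseudocount of 1 RPM. Windows of listed genes ran from 8000 nt before to 2000 nt after a gene end known from general knowledge, since no hg19 annotation was used. The named genes were the 5 members, the listed genes that moved, and the 2 nearest profiles per member. The members and lists were chosen with earlier results of these data known, and the single-site test was added after seeing the data. Fisher's exact tests used scipy 1.17.1, and scaling factors came from edgeR 4.0.16 and DESeq2 1.42.0. Clustering and tests were tested on simulated data. Windows of the siRNA target genes were added after seeing the data. Alternatives covered scaling, pseudocount, joining distance, floors, the choice of sites and the reference library.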

Additional observations from a re-analysis of the deposited data

How the results depend on the processing

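No paired analysis was possible because each group had 1 library. The H3F3B call in CstF-64 cells reversed when sites were chosen on the control libraries, with −21.9 points in place of 15.6, because another pair was formed; under the other joining distances, floors and groupings it stayed between 15.5 and 16 points. The shares of the called H3F3B sites moved little under the alternatives run, from 34.5 to 35.8% at the most 5′ site and 16.4 to 17% at the last site in CF Im 68 cells, and from 41.7 to 45.2% at 1021 nt and 1.95 to 2.78% at 1815 nt in CstF-64 cells. The H2AFV site at 44873907 took 12.3% in CF Im 68 cells when positions were joined within 50 nt, in place of 7.33%. With untreated cells as the single control, 1 member was lower in total in CstF-64 cells (H2AFZ) and 1 moved in site use in CF Im 68 cells (H3F3B, 18.5 points), and of the listed genes 4 moved in site use in CstF-64 cells, 4 were higher in CF Im 68 cells, and 2 were higher and 1 lower in CstF-64 cells. Over all loci, that control was applied to 17885 totals and 4791 pairs. In CF Im 68 cells it gave 2304 higher and 1102 lower totals and 426 distal moves. In CstF-64 cells it gave 1454 higher and 2286 lower totals with 911 proximal and 641 distal moves. Proximal moves in CF Im 68 cells, the direction of H3F3B, were 24.2% of pairs by the rule with both controls. Their number against untreated cells alone is not given here, so that H3F3B call has no background share. Control cells alone gave 206 distal moves in CF Im 68 cells. A pseudocount of 0.1 RPM gave 709 lower loci in CF Im 68 cells, and 525 higher and 1991 lower in CstF-64 cells; DESeq2 size factors gave 512 higher there. Joining within 10 nt moved 2 listed genes in CstF-64 cells, and windows from 3 kb before to 1 kb after the gene end moved 0, with 1 listed gene lower in total. H3F3A, with 49 to 102 reads, limits what its values can show.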

Other observations

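H2AFV held 2 weak clusters of ends, below the floor of 1 RPM, with most of their reads in the CF Im 68 library. The cluster at 44869472 had 6 reads in untreated, 10 in control, 1 in CstF-64 and 18 in CF Im 68 cells. The cluster at 44869538 had 1, 0, 0 and 13 reads in the same order. Another, at 44872056, had most of its reads in untreated cells, with 20 reads against 5, 4 and 4. In H3F3B a cluster at 73774482 had 1, 1, 0 and 4 reads. The H2AFX window held a weak cluster at 118964456, downstream of the main site, with 10, 9, 5 and 13 reads.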
